A study of Rattus norvegicus with 6 samples.

Results

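The genes described here are 10 neighbours on rat chromosome 18, from Tcf4 at one end to Me2 at the other, with C18h18orf54, Stard6 and Mbd2 lying side by side near the middle among the genes measured. They were followed in the kidneys of 6 males, of which 3 were controls of the Dahl salt sensitive rat (S) and 3 were S.LEW(10)x12x2x3x5 congenic rats. The S rat is an inbred strain in which salt raises blood pressure and the kidney leaks protein. By its name, the congenic strain has the S genetic background and carries a segment of chromosome 10 from the Lewis (LEW) rat, so chromosome 18 lies outside the named segment. Weaning was at day 30, the low-salt diet held 0.3% salt, the age was 53 days, and each cage held 1 rat of either strain, with no label to say which arrays came from cage mates, so the comparison is unpaired. One Affymetrix Rat Expression 230 2.0 array was hybridised per rat, which gives 1 log2 intensity for each probe set, a group of short probes that read the same transcript.

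The members were chosen by position, and the run was drawn around genes that had already been seen to differ between the strains in these arrays. Every probe set that the array annotation maps to exactly 1 of the 10 symbols was taken, which gave 16 of the 31042 probe sets tested, for 10 of the 14202 genes that could be placed in order. Of the 10 genes 6 had 2 probe sets and 4 had 1. The congenic against S values of the members are therefore a description, with no p-value given. In the text "passed" means an adjusted p under 0.05 in the limma fit over all 31042 probe sets, a rule that 6.00% of them met, 3.47% as higher and 2.53% as lower in congenic rats.

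The members share a neighbourhood and not a pathway. Mbd2 binds methylated CpG dinucleotides in DNA and recruits the NuRD complex, which carries histone deacetylases and silences genes. Stard6 belongs to the START-domain proteins, which carry lipids such as cholesterol between membranes, and is known mainly from male germ cells. C18h18orf54 is named after its human counterpart, an open reading frame of little known function. Among the others, Rab27b is a small GTPase of regulated secretion, Dcc is a netrin receptor, Smad4 is the shared partner of SMAD proteins in TGF-beta and BMP signalling, and Tcf4 is a basic helix-loop-helix transcription factor. Mex3c is an RNA-binding ubiquitin ligase, Me2 is a mitochondrial malic enzyme, and Ccdc68 is a coiled-coil protein of the centriole.

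The starts of C18h18orf54 and Stard6 lie close together, and that of Mbd2 lies farther along. The promoter windows of these 3 adjacent measured genes, which all passed as higher, are shown. Each runs 5′ to 3′ from 250 bases before to 50 bases after the gene's start, in the RefSeq annotation of GRCr8, with CG dinucleotides in capitals. They lie at chr18:66364782-66365081 on the minus strand for C18h18orf54, at chr18:66365276-66365575 on the plus strand for Stard6 and at chr18:66449108-66449407 on the plus strand for Mbd2.
C18h18orf54: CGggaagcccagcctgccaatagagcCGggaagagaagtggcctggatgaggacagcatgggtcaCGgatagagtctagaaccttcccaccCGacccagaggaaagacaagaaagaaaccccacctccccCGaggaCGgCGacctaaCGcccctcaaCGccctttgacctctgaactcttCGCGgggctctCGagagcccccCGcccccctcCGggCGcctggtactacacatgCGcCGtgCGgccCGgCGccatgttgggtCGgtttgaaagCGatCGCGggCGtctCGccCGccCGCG
Stard6: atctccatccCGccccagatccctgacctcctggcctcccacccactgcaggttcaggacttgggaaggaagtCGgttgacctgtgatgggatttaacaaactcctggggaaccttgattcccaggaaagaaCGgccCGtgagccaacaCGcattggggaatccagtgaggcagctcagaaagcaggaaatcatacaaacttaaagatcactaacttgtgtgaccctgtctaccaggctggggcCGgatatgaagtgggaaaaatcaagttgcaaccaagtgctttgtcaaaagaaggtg
Mbd2: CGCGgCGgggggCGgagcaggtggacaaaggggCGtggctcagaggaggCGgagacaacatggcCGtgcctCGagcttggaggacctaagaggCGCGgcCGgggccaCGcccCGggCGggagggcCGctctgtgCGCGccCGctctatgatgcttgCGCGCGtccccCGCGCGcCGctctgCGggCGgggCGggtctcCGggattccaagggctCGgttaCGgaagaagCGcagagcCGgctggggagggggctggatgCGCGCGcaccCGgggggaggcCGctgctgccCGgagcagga

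C18h18orf54 and Stard6 point away from each other, and 694 bases lie between their start sites in GRCr8. Poli, a DNA polymerase gene that in GRCr8 overlaps the Mbd2-facing end of Stard6 and stops short of Mbd2, was not analysed here. The Mbd2 window held 39 CG dinucleotides, a number that 3.76% of 33469 windows of the same length reached. The C18h18orf54 window held 29, reached by 11.5% of windows, and that of Stard6 held 6, reached by 56.3%, with a median of 7 over all windows. Among the other members with a window, Me2 held 34 (reached by 6.82%), Dcc 13, Rab27b 12, Tcf4 4 and Smad4 1. GGGCGG on either strand, which contains CG, was found at 4 places in the Mbd2 window, 2 in that of C18h18orf54 and 1 in that of Stard6. Among the other members it was found at 3 places for Me2, 1 for Tcf4 and 0 for Rab27b, Dcc and Smad4. It was present in 33.1% of all windows. CCAAT on either strand was found once each for C18h18orf54 and Stard6 and not for Mbd2, against 37.5% of windows. TATAAA on either strand was in none of the windows of C18h18orf54, Stard6 and Mbd2 and in 14.2% of all. These matches are letters in a reference of another strain, and no binding or methylation was measured.

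Mbd2, C18h18orf54 and Stard6 were higher in all 3 congenic rats than in any S rat. Mbd2 (1388774_at) read 11.71, 11.50 and 11.43 in S rats 1, 2 and 3 and 12.83, 12.93 and 13.03 in congenic rats 1, 2 and 3. The gap between the highest S rat and the lowest congenic rat was 1.12 on the log2 scale, many times the SD within either group. The group means (log2 ± SD, n = 3 each) were 11.55 ± 0.15 for S and 12.93 ± 0.10 for congenic rats, which differ by 1.38 ± 0.09 (SE) or 2.61-fold, with a 95% interval of 1.17 to 1.59 on the log2 scale. By limma's p, Mbd2 ranked 1 among all 31042 probe sets, and by size of rise it ranked 49. As the run was drawn around genes seen to differ in these arrays, these ranks and those of the other members are a description. In whole kidney, more cells of a type and more RNA per cell cannot be told apart, here and for the other members. Mbd2, like Stard6, was read by only 1 probe set. Probe sequences were not among the sources used here, so strain differences under the probes of the members were not examined.

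C18h18orf54 was read by 2 probe sets, and both showed a similar difference. The first (1380293_at) read 6.98, 7.21 and 6.87 in S rats 1 to 3 and 8.31, 8.39 and 8.64 in congenic rats 1 to 3. Its difference of 1.43 ± 0.11 (SE) is 2.69-fold, and it ranked 4 by p. The second (1379740_at) read 6.39, 6.99 and 6.50 in S, against 7.92, 8.23 and 8.12 in congenic rats, a difference of 1.46 ± 0.15 (SE) or 2.76-fold. On both probe sets S rat 2 was the highest S animal, and it still lay 0.93 or more below the lowest congenic rat.

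Stard6 (1392708_at) read 6.39, 6.58 and 6.35 in S rats 1 to 3 and 7.01, 7.20 and 7.22 in congenic rats 1 to 3. Every one of these values lay below the lowest array median (7.48), and no detection call was used. The groups were 0.42 apart at their nearest, and S rat 2 was again the highest of its group. The difference was 0.70 ± 0.09 (SE), or 1.63-fold, from 6.44 ± 0.12 to 7.14 ± 0.12 (log2, SD, n = 3). The Stard6 change was thus smaller than those of its neighbours on either side, and no test compared them, because they are different probes. Within S the rats did not keep 1 order across the 3 genes: Mbd2 was highest in S rat 1, C18h18orf54 and Stard6 in S rat 2.

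**Figure D1:**
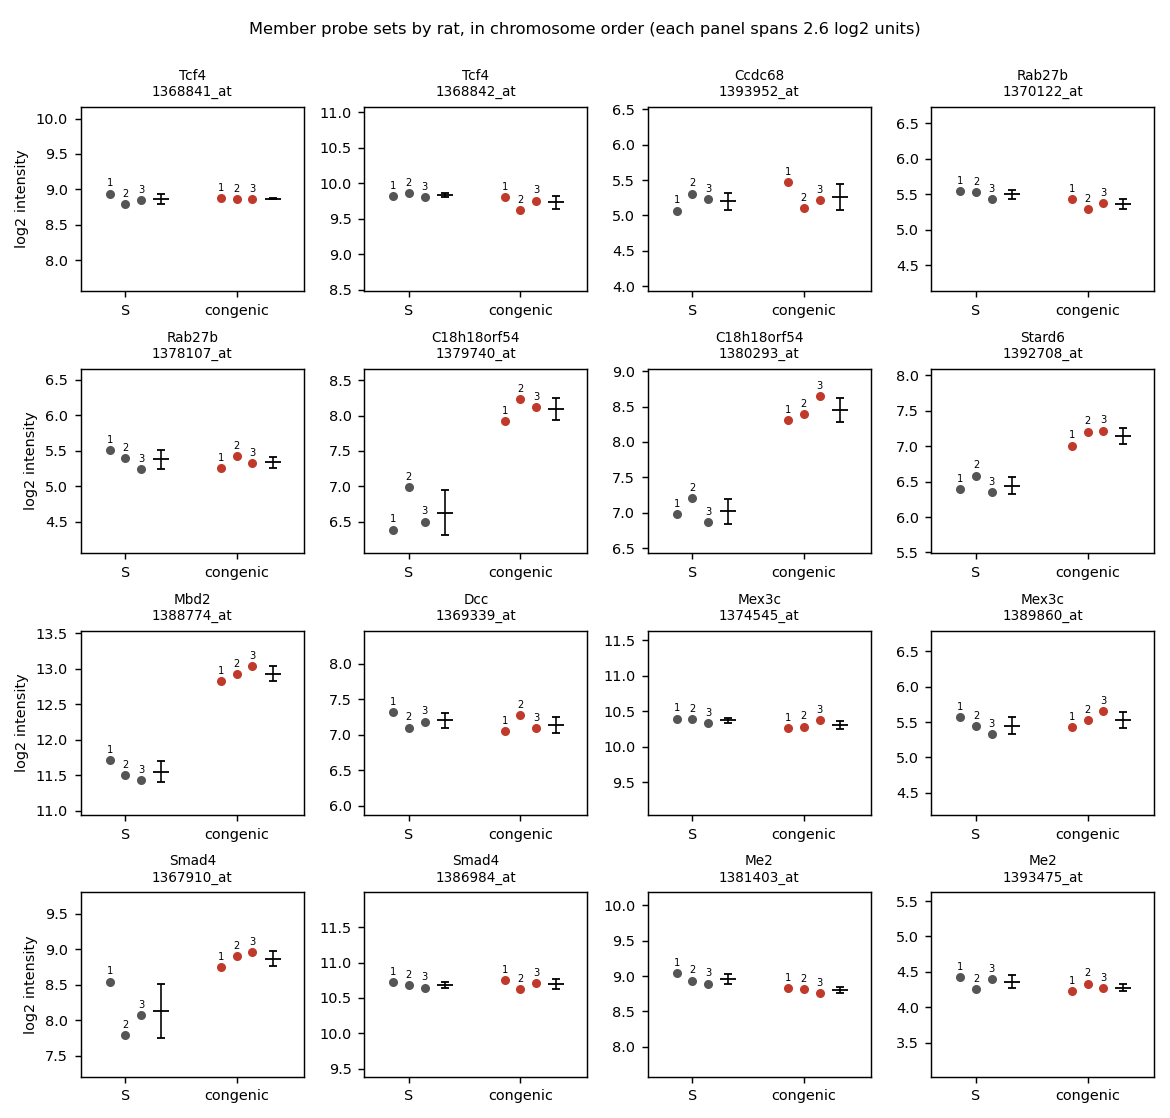
Log2 intensity of the 16 member probe sets by rat, with grey points for S and red points for congenic rats, rat numbers beside them, and a bar for the mean ± SD of 3 rats. The panels of C18h18orf54, Stard6 and Mbd2 show congenic rats above all S rats, as does 1 of the panels of Smad4, while the other panels lie nearly flat.

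Smad4 gave different answers at its 2 probe sets. The probe set 1367910_at read 8.54, 7.79 and 8.07 in S rats 1 to 3 and 8.75, 8.91 and 8.96 in congenic rats 1 to 3, a difference of 0.74 ± 0.17 (SE). Congenic rats were all above S rats, but by 0.20 at the nearest, and S rat 2 was the lowest animal. The probe set 1386984_at read 10.72, 10.68 and 10.65 in S, against 10.75, 10.62 and 10.71 in congenic rats, so the groups overlapped, and its difference was 0.01 ± 0.07 (SE). The call at 1367910_at was made in 7 of 14 alternative settings. It was lost when S rat 2, S rat 3 or any 1 of the congenic rats was left out, and kept when S rat 1 was, and over these 6 settings the difference ran from 0.56 (S rat 2 left out) to 0.94 (S rat 1 left out).

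At the remaining 6 genes no probe set passed. Tcf4 differed by 0.0046 ± 0.07 (SE) at 1368841_at and by -0.10 ± 0.07 at 1368842_at. Ccdc68 differed by 0.06, with means of 5.20 ± 0.12 for S and 5.27 ± 0.18 for congenic rats (SD, n = 3). Rab27b, the nearest measured gene to C18h18orf54 on the Tcf4 side, stood at -0.13 ± 0.07 and -0.05 ± 0.09 (SE) at its 2 probe sets. Dcc, the nearest measured gene to Mbd2 on the other side, read 7.32, 7.10 and 7.18 in S, against 7.05, 7.27 and 7.09 in congenic rats, a difference of -0.06. The 95% interval of the Dcc difference ran from -0.26 to 0.13. Mex3c stood at -0.07 and 0.09.

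Me2, at the end of the run, read 9.04, 8.94 and 8.89 in S, against 8.83, 8.82 and 8.76 in congenic rats at 1381403_at. The groups did not overlap there, the difference was -0.16 ± 0.07 (SE) and it did not pass. Its other probe set stood at -0.08. Groups that do not overlap were common on these arrays, at 31.2% of all probe sets, so the order of the Me2 values alone says little. The probe sets of Ccdc68 and Rab27b and 1 each of Mex3c and Me2 lay below the lower quartile of every array (5.88 to 5.96), and no detection call was used.

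Of the 16 member probe sets 5 passed as higher and 0 as lower, in 4 of the 10 genes, beside 3.47% and 2.53% of all probe sets. The groups did not overlap at 6 of the 16, beside 31.2% of all probe sets, and at 5 of these the congenic rats were the higher group, beside 12.7%. The 11 that did not pass lay between -0.16 and 0.09. The median over the 16 was 0.01 and that over all probe sets tested -0.02, so the middle of the run's values lay close to that of the array. The calls sat in 3 adjacent genes and in 1 probe set of Smad4, and the measured genes on either side of the 3, Rab27b and Dcc, did not pass.

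**Figure D2:**
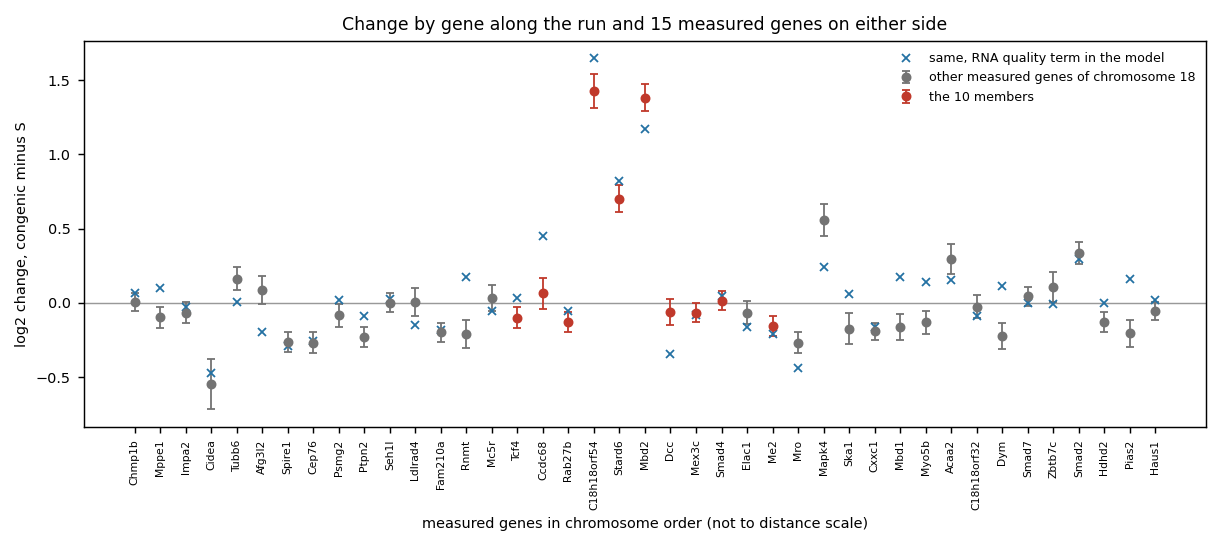
Log2 change (congenic minus S, ± SE of limma) at the brightest probe set of each measured gene, in chromosome order along the run and 15 measured genes on either side, with members in red and the values from a model with an RNA quality term as blue crosses. C18h18orf54, Stard6 and Mbd2 rise to between 0.70 and 1.43, and no other gene in the plot exceeds 0.56.

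How often 3 adjacent measured genes differed together was counted over the whole genome, with each gene taken by its brightest probe set and in the gene order of GRCr8. Of 14158 such triples 3 had all genes passing as higher and 1 as lower, where 4.79% of single genes passed. C18h18orf54, Stard6 and Mbd2 were the triple whose smallest change was largest, at 0.70. The other triples with higher values were overlapping sets of class II histocompatibility genes on chromosome 20, RT1-Da, RT1-Db1, RT1-Ba and RT1-Bb, with changes from 0.38 to 0.54. The triple with lower values was that of AKR1C3l1, Akr1c13 and Akr1c19 on chromosome 17, between -0.46 and -0.32. Both of these are families of related genes in tandem, whereas C18h18orf54, Stard6 and Mbd2 belong to separate families. This count was chosen after the values of the run were known and is a description.

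Of the 50 probe sets of the 30 measured genes nearest to the run 3 passed, a share equal to the 6.00% of all probe sets. On the Tcf4 side 0 of 28 probe sets of the 15 nearest measured genes passed (limma). The nearest were Mc5r, a melanocortin receptor (0.03), Rnmt, an mRNA cap methyltransferase (-0.21 and 0.16 at its 2 probe sets), Fam210a (-0.20 and 0.03), Ldlrad4 (0.0059) and Seh1l, a nucleoporin (0.0016 and 0.29). On the Me2 side 3 of 22 probe sets passed, all higher. The nearest gene, Mro, stood at -0.27 ± 0.07 (SE, adjusted p = 0.0606, limma). Mapk4, an atypical MAP kinase, rose by 0.56 ± 0.11 at 1374724_at (adjusted p = 0.0321, limma) and stood at 0.05 at its dimmer probe set. Ska1, a kinetochore protein, stood at -0.17, Cxxc1, which binds unmethylated CpG, at -0.19 and Mbd1, a relative of Mbd2, at -0.16. The other calls on that side were Smad7 (0.91 at 1 of its probe sets) and Smad2 (0.34), which are genes 10 and 12 beyond Me2 among those measured. Elac1, a tRNA-processing enzyme that lies between Smad4 and Me2 and is no member, stood at -0.07. Of these 50 neighbouring probe sets 10 passed when S rat 1 was left out, 1 when congenic rat 1 was, and 0 (limma) when S rat 3, congenic rat 2 or congenic rat 3 was. Over all of chromosome 18, 42 of 508 probe sets other than the members passed (8.27%).

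A measure of RNA quality moved with the groups. Control probes read beta-actin and Gapdh at their 3′ and 5′ ends, and the distance between the ends widens as RNA breaks or labelling stops short. The mean distance (log2 ± SD, n = 3 each) was 1.79 ± 0.28 for S and 1.12 ± 0.13 for congenic rats, with p = 0.1 in a two-sided exact permutation test, which cannot go lower at this size. When limma's model included that distance, 0 of all 31042 passed, and the number at an unadjusted p under 0.05 went from 7895 to 2292. Every S rat lay above every congenic rat in that distance, so strain and RNA quality cannot be told apart by this fit. The term widened the SE of all 16 member probe sets. In that model the differences of the 3 adjacent genes were 1.17 ± 0.18 (SE) for Mbd2 and 0.82 ± 0.18 for Stard6. Those of C18h18orf54 were 1.65 ± 0.23 and 1.95 ± 0.27. By p in that model Mbd2 ranked 10, the C18h18orf54 probe sets 5 and 7, and Stard6 149 of 31042. The median of the 156 probe sets that passed with rises of at least 2-fold fell from 1.20 to 0.22 with the same term. These 156 were picked by their rise in the fit without the term, and they include the probe sets of Mbd2 and C18h18orf54. The part of RNA quality in the members' differences was not tested. Smad4 at 1367910_at went from 0.74 to -0.03, Ccdc68 from 0.06 to 0.45 and Dcc from -0.06 to -0.35.

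S rat 2 stood apart from the other arrays, with the widest 3′ to 5′ distance (2.10). It was also the lowest rat at 2 distal tubule markers, Calb1 (9.38, against 12.73 to 13.52 in the other 5 rats) and Slc12a3 (9.50, against 11.73 to 12.42), and at 2 podocyte markers, Nphs1 (5.67, against 6.90 to 8.87) and Wt1 (5.05, against 6.89 to 8.10). The part of either in the members' values was not tested beyond leaving this rat out. Correlations between arrays ran from 0.985 to 0.998. Without S rat 2 the changes were 1.36 for Mbd2, 1.52 and 1.65 for C18h18orf54 and 0.77 for Stard6, and all 4 probe sets passed. Leaving out any rat in turn kept Mbd2 between 1.32 and 1.47. It kept C18h18orf54 between 1.33 and 1.65 over both probe sets and Stard6 between 0.66 and 0.77. With S rat 3 left out none of the 4 passed, and the same held with congenic rat 2 left out. In both cases 0 of all probe sets passed (limma), with 6968 and 5575 at an unadjusted p under 0.05. With congenic rat 3 left out 8 passed in all, and of the 4 these were Mbd2 and 1380293_at of C18h18orf54.

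**Figure D3:**
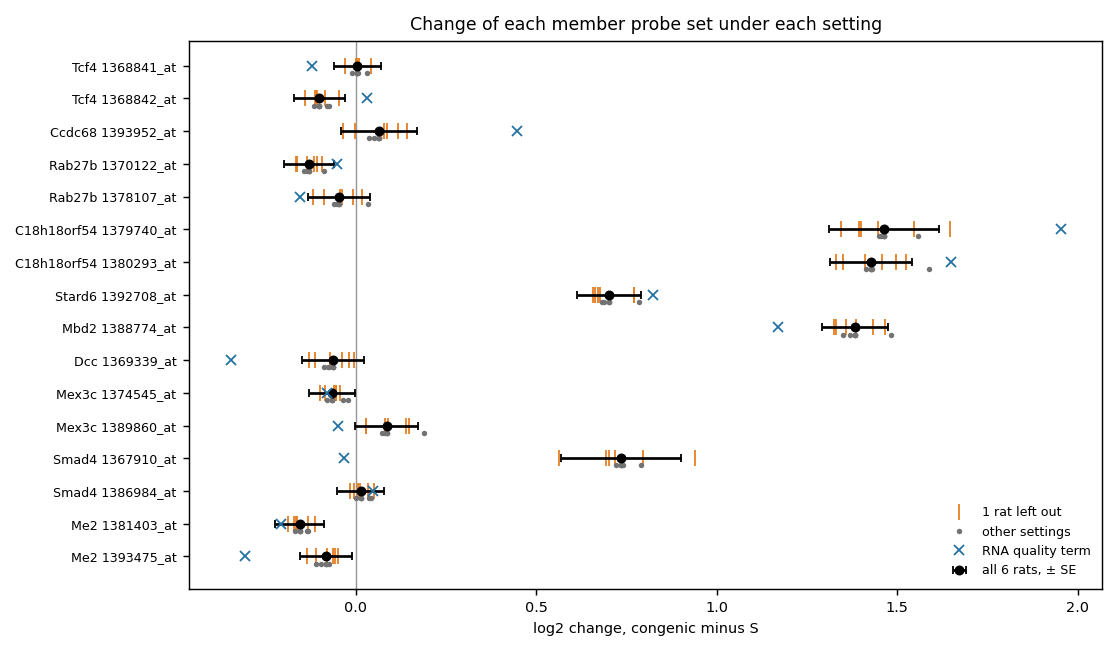
Log2 change (congenic minus S) of each member probe set, with all 6 rats (black, ± SE), with 1 rat left out (orange ticks), with the RNA quality term (blue crosses) and under the other settings (grey dots). The points of C18h18orf54, Stard6 and Mbd2 stay at 0.66 or above, while those of Smad4 1367910_at reach from -0.03 to 0.94.

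Of 6 proximal tubule markers 2 passed as higher, the transporters Slc22a8 (1.65, adjusted p = 0.0265, limma) and Slc5a2 (1.67, adjusted p = 0.0333, limma). S rat 2 was the lowest rat at both, at 9.55 for Slc22a8 (against 10.15 to 12.06 in the other rats) and 8.21 for Slc5a2 (against 8.89 to 11.02). The other 4, Kap, Miox, Slc34a1 and Lrp2, were brighter and stood between -0.09 and 0.28, and the summed linear intensity of the list overlapped between the groups, at 82312 to 87980 in S and 87818 to 91138 in congenic rats. Of 4 fibroblast markers 3 passed as higher, namely Lum, Dcn and Col1a1, and the sum was 7653 to 8443 in S and 10785 to 11824 in congenic rats. Of 5 adipocyte markers Cidec passed as lower, and the sum was 3349 to 5053 in S and 2325 to 3154 in congenic rats. Of 3 thick ascending limb markers Cldn16 passed as lower, with sums of 37142 to 39143 in S and 35349 to 35961 in congenic rats. Of 4 adrenal cortex markers 0 passed (limma), with sums of 241 to 282 in S and 293 to 325 in congenic rats. Of these Cyp11a1 stood at 0.46, while Star, Cyp17a1 and Cyp11b1 stood between -0.07 and -0.05. No marker reads 0 on these arrays, and the part of these cells in the members' differences was not tested. Of 3 distal tubule markers and 3 measured podocyte markers 0 passed (limma), with sums of 1431 to 17172 in S and 16357 to 16539 in congenic rats for the first list and 1123 to 2188 and 1818 to 2057 for the second. Of 4 collecting duct markers Slc4a1 passed as lower, with sums of 10549 to 11139 in S and 9716 to 11019 in congenic rats. None of the 3 measured endothelial and 3 measured nerve markers passed, and their sums overlapped between the groups. Of 5 leukocyte markers 0 passed at their brightest probe sets (limma), with sums of 1354 to 1643 in S and 1554 to 1686 in congenic rats. Among them Ptprc stood at 0.32 (adjusted p = 0.0537, limma), and the others lay between -0.03 and 0.08. At a dimmer probe set, 1370603_a_at, Ptprc passed as higher (0.84). Of 4 germ cell markers 2 had a probe set, the sperm protein genes Prm1 and Tnp1, and they stood at 5.08 in S and 5.12 in congenic rats and at 4.73 in S and 4.68 in congenic rats, below the lower quartile of every array.

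Genes that work with the members were measured across the genome. Of 172 probe sets of 102 measured genes in 8 lists of relatives and partners, 8 passed as higher and 4 as lower (6.98%, beside 6.00% of all probe sets), and the median change was -0.01. The list medians ran from -0.05 to 0.06. At 8 of the 12 calls a brighter probe set of the same gene missed the threshold. Of the 12, 0 remained with the RNA quality term (limma), and the lists held 36 calls when S rat 1 was left out, 6 when S rat 2 was and 5 when congenic rat 1 was. With S rat 3, congenic rat 2 or congenic rat 3 left out the count in the lists was 0 (limma), where 0, 0 and 8 of all probe sets passed.

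Among 26 probe sets of the MBD family, the DNA methyltransferases and NuRD, 2 passed, both higher, and the list median was -0.01. Hdac1, a deacetylase of NuRD, read 7.71, 6.67 and 7.08 in S rats 1 to 3 and 8.23, 8.30 and 8.63 in congenic rats 1 to 3 at 1396820_at. It rose by 1.24 ± 0.23 (SE, adjusted p = 0.0301, limma), with all congenic rats above all S rats and S rat 2 the lowest. Its brighter probe set stood at -0.09 (adjusted p = 0.52). Chd4, the remodelling ATPase of NuRD, rose by 0.62 ± 0.11 at 1397200_at (adjusted p = 0.0277, limma) and stood at 0.07 at its brightest. With the RNA quality term these were 0.21 for Hdac1 and 0.14 for Chd4. The MBD family genes Mbd1, Mbd3 and Mbd4 stood at -0.16, -0.16 and -0.03, and none passed.

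Among 22 probe sets of START-domain lipid carriers 0 passed as higher and 2 as lower, both of Stard10, a phospholipid carrier. At its brighter probe set Stard10 read 12.25, 12.30 and 12.17 in S, against 12.02, 11.96 and 11.85 in congenic rats, a fall of 0.29 ± 0.07 (SE, adjusted p = 0.0497, limma), and it fell by 0.43 at the other. The list median was 0.04. No other measured START gene had a rise that passed. The largest rise in the list was that of Stard5, 0.67 at 1394275_at (adjusted p = 0.0671, limma). Its other probe sets stood at 0.32 and 0.10 (adjusted p = 0.0645 and 0.58, limma).

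In the Rab27 list 2 of 27 probe sets passed, both higher, with a median of 0.02. Chm, a Rab escort protein that presents Rab proteins for lipid attachment, read 6.53, 6.04 and 6.10 in S, against 7.29, 7.25 and 7.29 in congenic rats at 1369227_at, a rise of 1.05 ± 0.12 (SE, adjusted p = 0.0137, limma). Its other probe set, of nearly the same mean, stood at -0.15 (adjusted p = 0.36). Rab3a, a GTPase of vesicle release, rose by 0.47 at its dimmer probe set and stood at -0.11 at the brighter. Rab27a, the close relative of Rab27b, stood between 0.07 and 0.45 at its 3 probe sets, with adjusted p from 0.0849 to 0.67.

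Of 24 netrin pathway probe sets 1 passed, that of Neo1, a netrin receptor related to Dcc. It rose by 0.55 at 1371056_at and stood at -0.03 at its brightest probe set, and the list median was -0.02. Of 38 SMAD signalling probe sets 3 passed, all higher, with a median of -0.05. Smad7, an inhibitory SMAD, rose by 0.91 ± 0.13 at 1368897_at and stood at 0.04 at its brightest. Acvr1, a BMP receptor, rose by 0.66 at 1398277_at and stood at -0.29 at its brightest (adjusted p = 0.0710). Smad2, a TGF-beta effector with 1 probe set, rose by 0.34 ± 0.08 (adjusted p = 0.0413, limma) and was 0.30 with the RNA quality term. Smad2 and Smad7 also lie on chromosome 18, so these are the probe sets counted among the neighbours.

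Of 17 probe sets of E proteins and ID inhibitors, the partners of Tcf4, 1 passed, that of Id4, an inhibitor of such factors. It fell by 0.79 ± 0.13 (SE, adjusted p = 0.0224, limma), and the brightest of its probe sets stood at -0.39 (adjusted p = 0.0721). Of 13 probe sets of malic and linked enzymes 1 passed: the cytosolic malic enzyme Me1 fell by 0.39 ± 0.07 at its brighter probe set, from 11.66 ± 0.11 to 11.27 ± 0.01 (log2, SD, n = 3), and stood at -0.02 at the other. Of 5 MEX3 probe sets 0 passed (limma, with 2 below an unadjusted p of 0.05), the nearest being Mex3b at 0.38 (adjusted p = 0.10).

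**Figure D4:**
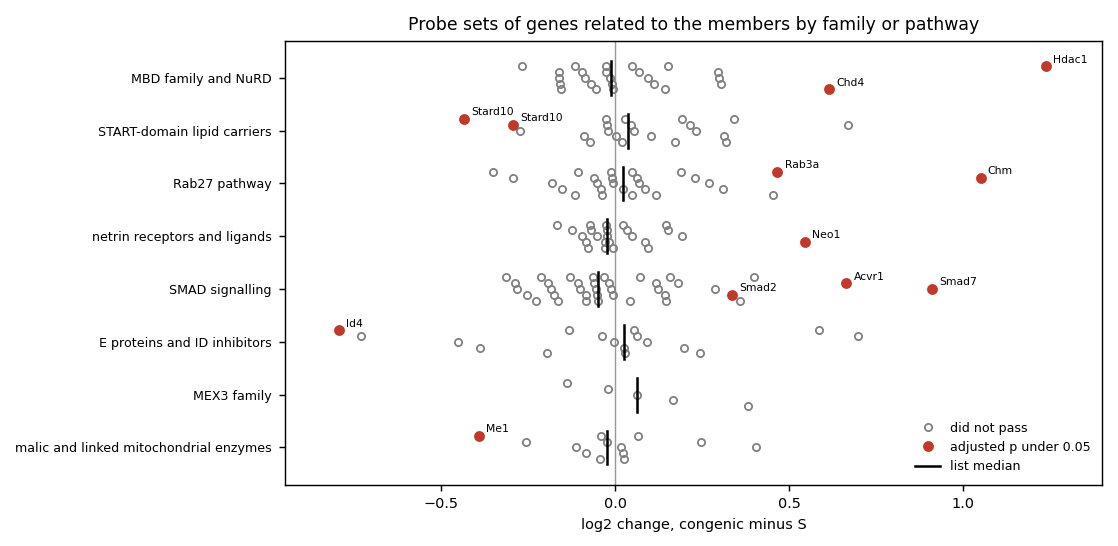
Log2 change (congenic minus S) of each probe set in the 8 lists of genes related to the members, with red points for those that passed an adjusted p of 0.05 and a black bar for the list median. The medians lie between -0.05 and 0.06, and the calls are scattered among the lists.

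Outside the members, the profiles most like that of Mbd2 over the 6 arrays belonged to other chromosomes. By Pearson's r they were Cd276 (0.9974), Bmp1 (0.9968), Itgb1 (0.9948), Lrpprc (0.9947) and 1370603_a_at of the leukocyte marker Ptprc (0.9944), with rises from 0.48 to 0.84. Within the run the correlation with Mbd2 was 0.94 and 0.98 for the C18h18orf54 probe sets and 0.96 for Stard6. It was 0.90 for Smad4 at 1367910_at and ran from -0.80 (Me2 at 1381403_at) to 0.55 (Mex3c at 1389860_at) for the other 11 member probe sets. Outside the members, the profiles most like that of Stard6 were Timp1 (0.9971), Mad2l1 (0.9943), Safb (0.9932), Tfe3 (0.9924) and Rps9 (0.9918), with changes from 0.11 to 0.53, beside 0.9919 and 0.9894 for the C18h18orf54 probe sets. These correlations are a description: all rest on the same 6 arrays, which fall into 2 groups of 3.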

How the data were processed

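The deposited values are log2 probe set intensities, 1 array per rat, judged from their range (3.76 to 15.1) and from array medians of 7.48 to 7.51. How the authors summarised and normalized them is not given in the sources used here. The design text states that p-values were adjusted by BH in R 2.8.1. Of 31099 probe sets 57 controls were left out. Names came from the platform annotation, and symbols and gene order from RefSeq (GRCr8): 20826 of 31042 had 1 symbol, 436 several and 9780 none listed. The deposited table names no build, so only promoter windows have coordinates.

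The groups were set against each other with lmFit and eBayes of limma 3.58.1 (R 4.3.3) over 31042 probe sets, two-sided with Benjamini-Hochberg adjustment and 8.49 degrees of freedom with the prior. It was tested on simulated data. Figures used matplotlib 3.10.9. The members, partner lists, markers and settings were chosen with earlier results of these data known. Named genes are all members, the 5 nearest measured genes on either side, called partners (up to 3 per list, otherwise the smallest p) and the 5 profiles most like Mbd2 and Stard6. Mbd1, Mbd3, Mbd4, Rab27a, Stard5, Elac1, Smad2 and Smad7 as neighbours and the genes of other triples were named with their values in view. The settings tried were quantile normalization, median centring, a filter at percentile 40 of mean intensity, eBayes with a trend or robust, array weights, rat number as a block, an RNA quality covariate, 1 rat left out, and other thresholds. Precision rests on 3 rats per group.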

Additional observations from a re-analysis of the deposited data

How the results depend on the processing

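The 4 probe sets of Mbd2, C18h18orf54 and Stard6 kept their direction under every setting run, except that Stard6 was dropped by the filter on dim probe sets. Few of the settings could have turned it. Where groups do not overlap, leaving out a rat or weighting arrays cannot, and the filter, trend, robust and block fits leave the difference unchanged. Smad4 at 1367910_at turned to -0.032 with the RNA quality covariate. With that covariate the count over all probe sets was 0 in place of 1862, with 2292 below an unadjusted p of 0.05 (limma), and the counts of members called higher, partners and neighbours were 0 in place of 5, 12 and 3; the cause was not tested. Array weights gave 6077 calls in all, 45 partners and 17 neighbours. The intensity trend gave 19 partners and 7 neighbours, median centring 6 neighbours and the filter on dim probe sets 5. At an adjusted p of 0.01 the counts were 20 in all, 2 members, 0 partners and 0 neighbours, and at 0.1 they were 4455, 5, 37 and 12. Leaving out 1 rat gave 0 to 4752 calls in all, 0 to 5 members higher, 0 to 36 partners and 0 to 10 neighbours. The rat number as a replicate block gave 658 calls in all, 4 members and 5 partners, and Smad4 was the member lost. Same-numbered rats did not deviate together (correlations of -0.01, -0.18 and -0.14), so the numbers were not taken as pairs, and each of the 3 S rats correlated best with a congenic rat of another number (0.09, 0.17 and 0.38). Which rats shared a cage is not given in the sources used here, so no fit by cage was run. No setting called a member lower.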
